A study of Mus musculus with 12 samples.

Results

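Type IV collagen is the sheet-forming collagen of basement membranes. The 6 genes that encode its chains, Col4a1, Col4a2, Col4a3, Col4a4, Col4a5 and Col4a6, were followed through single-nucleus RNA sequencing of mouse lung. They were found by symbol among the 31053 genes counted, and all 6 were present. Lungs came from 12 C57BL/6J mice, each the source of 1 library, and every one of the 4 groups had 3 mice. At 7 weeks of age the mice received PBS or bleomycin, a drug that injures the lung epithelium and is followed by fibrosis, through the trachea. From 5 days later they were gavaged once a day for 5 days with NVP-BHG712, an inhibitor of the receptor tyrosine kinase EphB4, or with its vehicle of N-methyl-2-pyrrolidone and polyethylene glycol, and lungs were taken at 14 days. The groups are PBS_Vehicle, PBS_NVP-BHG712, Bleo_Vehicle and Bleo_NVP-BHG712. None carried an engineered allele.

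The chains assemble inside the cell into heterotrimers of fixed composition. The α1 and α2 chains form the network found in nearly all basement membranes, the α3, α4 and α5 chains form a network known from the kidney glomerulus and the lung alveolus, and the α5 and α6 chains join in the membranes of smooth muscle and some epithelia. In the alveolus, the basement membranes of thin type I alveolar cells and of capillary endothelium lie against each other or are fused. The genes lie as 3 neighbouring pairs, and the 2 genes of a pair are read in opposite directions from a shared or nearby start region.

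On GRCm38 (mm10), Col4a1 (ENSMUSG00000031502, chr8:11198423-11312826, minus strand) and Col4a2 (ENSMUSG00000031503, chr8:11312805-11449287, plus strand) overlapped at their 5′ ends by 22 bases. Col4a3 (ENSMUSG00000079465, chr1:82586921-82722059, plus strand) and Col4a4 (ENSMUSG00000067158, chr1:82448423-82586849, minus strand) were separated by 71 bases. Col4a5 (ENSMUSG00000031274, chrX:141475385-141689234, plus strand) and Col4a6 (ENSMUSG00000031273, chrX:141165403-141474076, minus strand) were separated by 1308 bases. The start regions are shown because they are what sets the pairs apart. By the coordinates above, 1 window of 300 bases spans both starts of the first pair and 1 window spans both starts of the second. The third pair needs a window for each gene. RefSeq gene starts differ from these coordinates. They place Col4a1 at 11312889, outside the first window, and Col4a4 at 82587034, past the start of Col4a3. The windows run from 250 bases before to 50 bases after a RefSeq transcript start on GRCm38.p6, 5′ to 3′ on the strand of the named gene. They are chr8:11312555-11312854 (plus strand, Col4a2), chr1:82586800-82587099 (minus strand, Col4a4), chrX:141475169-141475468 (plus strand, Col4a5) and chrX:141474027-141474326 (minus strand, Col4a6). Capitals mark matches to CCAAT or GGGCGG on either strand.
Col4a2: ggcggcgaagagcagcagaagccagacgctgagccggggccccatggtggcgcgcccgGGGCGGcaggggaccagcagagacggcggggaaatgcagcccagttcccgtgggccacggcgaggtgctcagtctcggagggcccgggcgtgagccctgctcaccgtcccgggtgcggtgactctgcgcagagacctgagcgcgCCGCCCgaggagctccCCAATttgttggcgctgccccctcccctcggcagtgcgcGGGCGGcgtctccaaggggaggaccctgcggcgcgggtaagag
Col4a4: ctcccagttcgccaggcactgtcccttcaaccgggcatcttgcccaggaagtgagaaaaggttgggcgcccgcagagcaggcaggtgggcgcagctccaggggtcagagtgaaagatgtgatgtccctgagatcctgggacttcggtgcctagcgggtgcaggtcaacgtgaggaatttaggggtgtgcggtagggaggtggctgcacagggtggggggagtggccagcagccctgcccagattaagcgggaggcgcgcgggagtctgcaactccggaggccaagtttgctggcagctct
Col4a5: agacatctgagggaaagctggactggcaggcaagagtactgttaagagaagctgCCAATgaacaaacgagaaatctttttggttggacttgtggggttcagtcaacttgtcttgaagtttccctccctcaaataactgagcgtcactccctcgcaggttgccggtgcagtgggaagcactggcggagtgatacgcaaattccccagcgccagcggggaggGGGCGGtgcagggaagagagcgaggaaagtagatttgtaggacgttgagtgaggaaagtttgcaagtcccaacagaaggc
Col4a6: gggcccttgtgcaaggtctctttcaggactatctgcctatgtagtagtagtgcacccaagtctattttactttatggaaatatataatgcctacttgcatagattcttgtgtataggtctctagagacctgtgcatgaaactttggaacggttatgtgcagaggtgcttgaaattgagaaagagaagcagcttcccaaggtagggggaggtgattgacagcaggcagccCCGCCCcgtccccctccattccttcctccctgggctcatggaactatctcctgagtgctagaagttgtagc

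The Col4a2 window held 1 CCAAT and 3 GGGCGG matches at a GC content of 73.7%, and the overlapping Col4a1 window held 1 of each at 74.0%. The Col4a4 window had a GC content of 63.3% and neither motif. The X-linked windows were lower in GC, at 52.7% with 1 match of each motif for Col4a5 and at 48.3% with 1 GGGCGG match for Col4a6. TATAAA was searched in the same way and was not found in the 5 windows examined. No matches overlapped each other. Among 32851 mouse promoter windows of the same length, 37.4% held CCAAT, 35.7% GGGCGG and 13.6% TATAAA, and the median GC content was 52.7%. A match describes the letters of the window only.

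Of 49163 barcodes, 44611 nuclei were kept (1168 to 11867 per library), and the kept nuclei of a library had a median of 1065 to 5263 unique molecular identifiers (UMIs). The 12 libraries held 3556084 to 61947690 UMIs each. Nuclei were clustered without the 6 collagen genes, so the clusters do not set their levels, and clusters were named only from marker genes. This gave 20 classes and 1268 unnamed nuclei. No 2 libraries shared more than 34 barcodes, or more than 0.845% of the smaller library. The Bleo_Vehicle libraries stood apart, with a median of 0.67% to 2.56% of UMIs per nucleus from mitochondrial genes against at most 0.05% in the other libraries. Each bleomycin group also had run or batch numbers that no other group had. In every comparison with a bleomycin group, the run or batch and the group thus cannot be told apart. The 2 PBS groups shared run or batch numbers 1 and 2. Whole-lung log2 differences of the 6 genes between PBS_NVP-BHG712 and PBS_Vehicle lay between -0.13 and 0.04 within number 1. Within number 2 they lay between -0.36 and 0.31.

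Levels are given in CPM, the UMIs of a gene scaled to a fixed total of UMIs of its class in a library, as the mean ± SD over libraries with at least 20 nuclei of that class. All 6 chains were detected, with 60552 UMIs of Col4a1, 55034 of Col4a2, 126762 of Col4a3, 136087 of Col4a4, 77973 of Col4a5 and 16805 of Col4a6 in the series. The 3 pairs had different places in the lung. Col4a1 and Col4a2 were spread over vessels, mural cells, alveolar epithelium and fibroblasts, Col4a3 and Col4a4 were led by type I alveolar nuclei, and Col4a5 and Col4a6 were high in type I alveolar, club and smooth muscle nuclei.

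Col4a1 was highest in pericytes, the contractile cells wrapped around capillaries, at 780.0 ± 186 CPM (8 libraries), with a range of 510 to 1122. General capillary endothelium followed at 446 ± 78.3, type I alveolar at 441 ± 210 and smooth muscle at 396 ± 105 (3 libraries). Lymphatic endothelium stood at 368, aerocytes (the capillary endothelium of gas exchange) at 328, type II alveolar nuclei, which secrete surfactant, at 324, venous endothelium at 296, fibroblasts at 258 ± 157 and arterial endothelium at 257. The airway classes were lower, at 114 in ciliated and 74.0 in club nuclei, and alveolar macrophages had the lowest level at 34.5. Col4a2 had its highest mean in pericytes, at 556 ± 85.0 CPM (8 libraries), and then 476 ± 169 in type I alveolar nuclei (12 libraries), but within the 8 libraries that held both classes the pericyte level was higher in only 4. Its mean was 395 in smooth muscle, 341 in general capillary, 336 in type II alveolar, 282 in aerocyte and 158 in fibroblast nuclei.

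Col4a3 stood at 2138 ± 472 CPM in type I alveolar nuclei over the 12 libraries, with a range of 1668 to 3118. The next named classes were mesothelial nuclei, the outer lining of the lung, at 285 ± 115 (9 libraries) and type II alveolar nuclei at 281 ± 140. Unnamed nuclei are not in these orders. Their cluster led by Tnip3 and Areg had 744.5 ± 459 CPM of Col4a3 and 615 ± 193 of Col4a4 (5 libraries). Club nuclei had 107, aerocytes 20.1 and fibroblasts 19.6. Col4a4 followed the same outline, with 2416 ± 436 CPM in type I alveolar nuclei and a range of 1779 to 3324. Its mesothelial level of 735 ± 250 was nearer to the type I level than that of Col4a3 was, and its level was 285 ± 111 in type II alveolar, 125 in club, 27.3 in fibroblast and 25.6 in aerocyte nuclei. In B and T or NK nuclei, means of 184 to 321 for this pair came with an SD of about the size of the mean over 7 or 8 libraries, and those classes were not read further.

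Col4a5 led in type I alveolar nuclei at 1186 ± 271 CPM, with club nuclei, the secretory cells of the small airway, at 906 ± 314. Smooth muscle had 347, mesothelial 345, type II alveolar 196, fibroblast 189, peribronchial fibroblast 187 and ciliated 171, and aerocytes had 13.6. Col4a6 had another order. Among the named classes, club nuclei had 635 ± 202, smooth muscle 514 ± 127 (3 libraries), type I alveolar 208 ± 88.6, mesothelial 193 and peribronchial fibroblasts 153, and fibroblasts had 45.3, ciliated 34.9, type II alveolar 18.8 and alveolar macrophages 4.84. The unnamed cluster led by Bpifb1 and Muc5b had 731.5 ± 293 CPM of Col4a6 (3 libraries).

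Neighbours in these orders were compared within libraries on log2(CPM + 1), with an exact two-sided sign-flip test and Benjamini-Hochberg adjustment over the 102 neighbouring pairs of classes. Only 3 of the 102 passed at an adjusted p under 0.05, and each held in 12 of 12 libraries, with the smallest p that 12 libraries allow (exact permutation p = 0.000488, adjusted p = 0.0166). Col4a4 was 1.24 log2 units higher in type II alveolar than in club nuclei, Col4a5 was 0.51 higher in type I alveolar than in club nuclei, and Col4a6 was 1.66 higher in club than in type I alveolar nuclei. The other leading steps missed the threshold. With 9 or 8 shared libraries the smallest exact permutation p is 0.0039 or 0.0078, which came to 0.0797 or 0.0885 after adjustment. Steps that held in all of 9 or 8 libraries thus missed at the smallest p open to them, as the adjustment also depends on the other steps. Their miss says nothing about their size. Col4a2 was 0.0074 higher in pericytes than in type I alveolar nuclei, in 4 of 8 libraries (exact permutation p = 0.945). Col4a3 was 3.06 higher in type I alveolar than in mesothelial nuclei in 9 of 9 libraries (adjusted exact permutation p = 0.0797), the same step for Col4a4 was 1.81 in 9 of 9 (adjusted exact permutation p = 0.0797), and Col4a1 was 0.81 higher in pericytes than in general capillary nuclei in 8 of 8 (adjusted exact permutation p = 0.0885). The order of general capillary and type I alveolar nuclei for Col4a1 was not resolved (higher in 7 of 12 libraries, exact permutation p = 0.493), and smooth muscle, with 3 libraries, was not in this test.

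**Figure D1:**
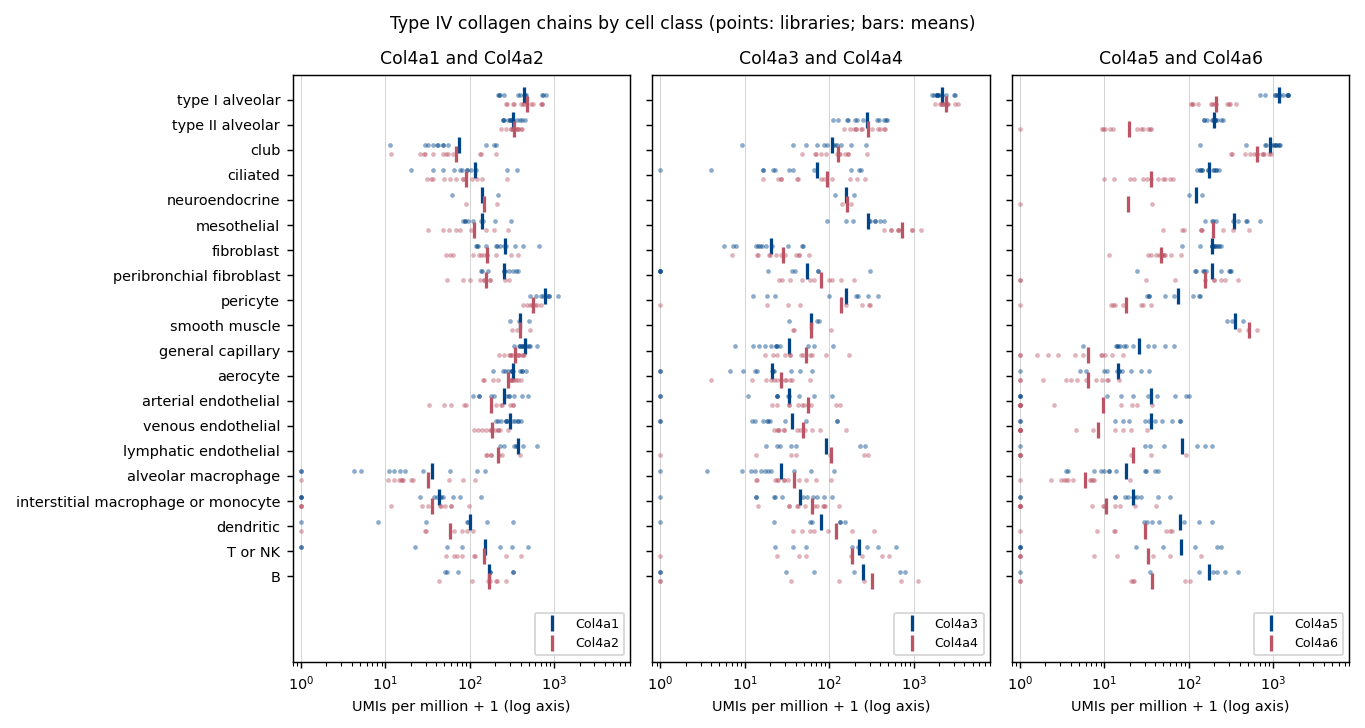
Level of each chain in each named class, in CPM on a log axis, with 1 panel per gene pair, points for libraries and vertical bars for means, drawn as CPM + 1. Type I alveolar nuclei lead for Col4a3 and Col4a4 (2138 and 2416 CPM), pericytes have the highest means of Col4a1 and Col4a2 (780.0 and 556 CPM, the latter not above type I alveolar nuclei within libraries), and Col4a6 is highest in club and smooth muscle nuclei.

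To set different genes beside each other, the level was also divided by gene length. This assumes that counts from nuclei grow with gene length, which was not measured for these 3′ libraries. The division can change an order, since undivided Col4a2 was above Col4a1 in type I alveolar nuclei (476 against 441 CPM). In type I alveolar nuclei the level per 10 kb of gene was 158 CPM for Col4a3 and 174 for Col4a4, against 55.5 for Col4a5, 38.5 for Col4a1, 34.8 for Col4a2 and 6.72 for Col4a6. Pericytes had 68.2 for Col4a1 and 40.8 for Col4a2, with 3.46 for Col4a5 and 0.56 for Col4a6. General capillary nuclei had 39.0 and 25 for the first pair and 1.16 or less for Col4a5 and Col4a6. In club nuclei Col4a5 (42.4) and Col4a6 (20.6) were above the 4 other chains, which lay between 4.95 and 9.04. In mesothelial nuclei Col4a4 led with 53.1, ahead of Col4a3 at 21.1 and Col4a5 at 16.1.

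The share of nuclei with at least 1 UMI was compared after each nucleus was thinned to 1000 UMIs, and 313 of 6301 type I alveolar and 793 of 3519 alveolar macrophage nuclei were left out as shallower. Among the type I alveolar nuclei, 87.0% held Col4a4, 83.5% Col4a3, 59.3% Col4a5, 39.1% Col4a2, 35.6% Col4a1 and 12.4% Col4a6 (96.3%, 94.9%, 86.7%, 79.5%, 75.8% and 36.2% before thinning). Alveolar macrophages, which are not known to make these chains, held them in 4.04% of nuclei for Col4a1 and Col4a4, 3.30% for Col4a2 and Col4a3, 2.09% for Col4a5 and 0.33% for Col4a6 (1.11% to 10.3% before thinning). Other immune classes lay higher, with 10.8%, 10.4%, 7.16%, 12.2%, 6.87% and 1.19% of 335 B nuclei for Col4a1 to Col4a6, 11% of T or NK nuclei for Col4a3 and 8.68% of dendritic nuclei for Col4a1 and Col4a2. Free RNA was not measured here. The main clusters of the 2 classes had medians of 5085.5 and 2293 UMIs per nucleus. Higher shares than in these immune classes were found for Col4a1 and Col4a2 in pericytes (45% and 43.5%) and general capillary nuclei (29.3% and 26.9%), for Col4a5 and Col4a6 in club nuclei (50.2% and 34.0%), and for Col4a3 and Col4a4 in mesothelial nuclei (24.7% and 41.6%). Fibroblasts held Col4a1 in 20.8% and Col4a2 in 14.5%, and the latter was close to the upper bound of the 95% exact interval in B nuclei (14.2%).

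In the classes given here, a chain was found more often in nuclei that also held its partner. In thinned type I alveolar nuclei, Col4a4 was found in 88.9% of those with Col4a3 and in 77.2% of those without it. Col4a2 was found in 43.7% of those with Col4a1 and in 36.6% of those without, and Col4a6 in 13.4% of those with Col4a5 and in 11% of those without. The difference was wider in other classes, with 55.4% against 37.1% for Col4a4 by Col4a3 in mesothelial nuclei, 39.5% against 28.4% for Col4a6 by Col4a5 in club nuclei and 48.8% against 39.1% for Col4a2 by Col4a1 in pericytes. These shares are descriptions over pooled nuclei of the 12 libraries, and nuclei of a library are not replicates.

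Across 18 classes with enough nuclei, the mean log2 levels of the 2 genes of a pair went together, with r = 0.939 for Col4a1 and Col4a2, 0.905 for Col4a3 and Col4a4 and 0.931 for Col4a5 and Col4a6. The classes share libraries and depth, so no p is given. The ratio of pooled UMIs within a pair may carry gene length, so only its differences between classes are read. The Col4a1 to Col4a2 ratio ran from 0.925 in type I alveolar nuclei (95% exact interval 0.908 to 0.943) to 1.61 in lymphatic endothelium, with 0.963 in type II alveolar, 1.18 in general capillary, 1.46 in venous and 1.60 in fibroblast nuclei (1.55 to 1.65). The Col4a3 to Col4a4 ratio was 0.931 in type I alveolar (0.922 to 0.939) and 1.03 in type II alveolar nuclei, and its lowest value was 0.471 in mesothelial nuclei (0.428 to 0.517). The Col4a5 to Col4a6 ratio, over 8 classes with enough UMIs, ran from 0.642 in smooth muscle (0.517 to 0.797) over 1.45 in peribronchial fibroblasts, 1.53 in club, 2.08 in mesothelial, 4.15 in fibroblast, 5.46 in ciliated and 6.69 in type I alveolar nuclei to 11.5 in type II alveolar nuclei (10.1 to 13.1). These intervals cover counting error only.

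Between chosen classes, the pairs were then compared within the 12 libraries, with a two-sided exact sign-flip test on log2(CPM + 1). The summed level of Col4a1 and Col4a2 was 1.12 ± 0.70 higher in general capillary nuclei than in fibroblasts, in 12 of 12 libraries (exact permutation p = 0.000488, adjusted over 6 comparisons 0.000977). That of Col4a3 and Col4a4 was 3.11 ± 0.63 higher in type I than in type II alveolar nuclei, and that of Col4a5 and Col4a6 was 2.58 ± 0.26 higher in type I alveolar nuclei than in fibroblasts, each in 12 of 12 libraries with the same p. The balance, the log2 level of the first gene minus that of the second, also differed between classes for the outer pairs. Col4a1 exceeded Col4a2 by 0.40 in general capillary nuclei and by 0.76 in fibroblasts, a difference of -0.36 ± 0.44 (higher in 2 of 12 libraries, exact permutation p = 0.0176, adjusted 0.0211). Col4a5 exceeded Col4a6 by 2.6 in type I alveolar nuclei and by 2.11 in fibroblasts, a difference of 0.49 ± 0.48 (higher in 11 of 12 libraries, exact permutation p = 0.00781, adjusted 0.0117). The balance of Col4a3 to Col4a4 differed by -0.083 ± 0.18 between type I and type II alveolar nuclei, which did not pass (4 of 12 libraries higher, exact permutation p = 0.145). It passed with doublets kept (-0.22) and with clustering without batch correction (-0.12). Averaged within libraries over 18 classes, the balance spanned 2.40 log2 units for Col4a1 and Col4a2, 3.45 for Col4a3 and Col4a4 and 3.30 for Col4a5 and Col4a6. The ends of the first 2 spans lay in classes with few UMIs and are not read as differences between classes. For Col4a1 and Col4a2 the low end was T or NK nuclei (-1.62 ± 2.97, pooled ratio 1.13). For Col4a3 and Col4a4 the ends were peribronchial fibroblasts (-2.48 ± 3.02, pooled ratio 1) and T or NK nuclei (0.97 ± 2.20, pooled ratio 0.949).

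**Figure D2:**
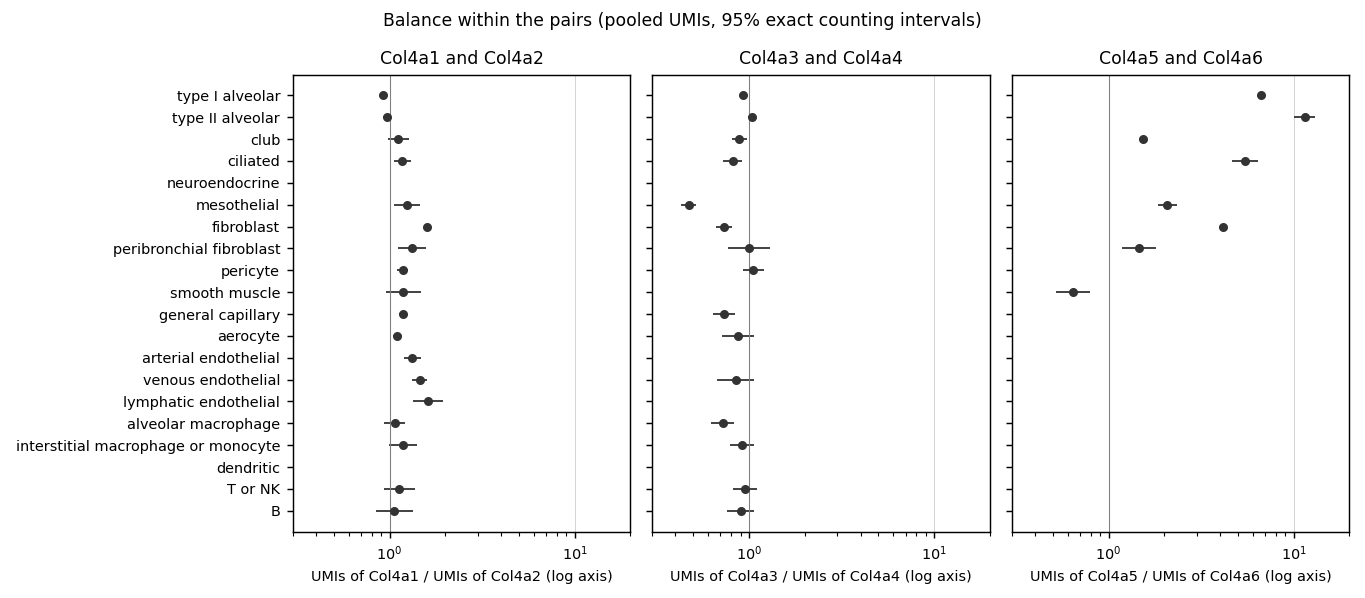
Balance of each pair in each class, as the ratio of pooled UMIs of the first gene to the second on a log axis, with bars for 95% exact counting intervals. Col4a1 to Col4a2 runs from 0.925 to 1.61, and Col4a5 to Col4a6 from a pooled ratio of 0.642 in smooth muscle to 11.5 in type II alveolar nuclei.

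The genes whose class profile was most like that of each summed pair were taken by Pearson r over the 18 classes among 11485 genes, with no p. For Col4a1 and Col4a2 they were Epn2 (0.90), Frmd6 (0.891), Msrb3 (0.883), Sptbn1 (0.859), which encodes a spectrin of the membrane skeleton, and Hdac7 (0.857), a histone deacetylase known from endothelium. For Col4a3 and Col4a4 they were the chloride channel gene Ano1 (0.93), Sh3rf2 (0.91), the metal ion transporter gene Slc39a8 (0.91), the polarity gene Pard6b (0.892) and 2010005H15Rik (0.874). For Col4a5 and Col4a6 they were Tom1l1 (0.878), the thyroid hormone receptor gene Thrb (0.877), Epb41l5 (0.874), the transcription factor gene Foxp2 (0.871) and Selenbp1 (0.868).

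Groups were compared within each class on UMIs summed per mouse, with edgeR's quasi-likelihood test and Benjamini-Hochberg adjustment over all genes tested in the class. A gene was called at an adjusted p under 0.05. Of 12 classes deep enough, 11 had chains past the filter on low counts, which gave 55 tests of a chain in a class. The 3 libraries of a group are 3 mice. Between Bleo_Vehicle and PBS_Vehicle, 15 of 55 were called higher and 0 lower, where 3.06% of all genes tested were called in either direction, and 31 had an unadjusted p under 0.05. The median log2 change was 0.84 over the 55 tests and -0.011 over all genes. Between Bleo_NVP-BHG712 and Bleo_Vehicle, 17 were called lower and 1 higher, against 4.21% of all genes, and the median was -1.25 against -0.013. The 2 contrasts share the Bleo_Vehicle libraries. Between PBS_NVP-BHG712 and PBS_Vehicle, 0 of 55 were called against 0% of all genes (edgeR, 1 at an unadjusted p under 0.05, 0 with DESeq2), and between Bleo_NVP-BHG712 and PBS_NVP-BHG712 also 0 of 55 against 0% (edgeR, 1 unadjusted, 0 with DESeq2). CPM values printed per mouse are not scaled further, while the tested changes are scaled by the trimmed mean of M values. On plain CPM the median gene of a class shifted between Bleo_Vehicle and PBS_Vehicle by as much as -0.269 (club), -0.261 (ciliated) and -0.162 (type II alveolar) log2 units. With stricter limits on nuclei (500 UMIs or more, a mitochondrial share of 1% or less), which left 10977 of the 20414 Bleo_Vehicle nuclei, the calls fell from 15 to 3 and from 18 to 8.

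In type I alveolar nuclei, Col4a1 had 391, 466 and 221 CPM in the PBS_Vehicle mice, 370, 438 and 216 with PBS_NVP-BHG712, 713, 802 and 746 in Bleo_Vehicle and 250.2, 448 and 226 in Bleo_NVP-BHG712. The Bleo_Vehicle mice stood above all others without overlap. The log2 change was 1.1 (SE 0.34, adjusted p = 0.0951) between Bleo_Vehicle and PBS_Vehicle and -1.26 (SE 0.34, adjusted p = 0.0519) between Bleo_NVP-BHG712 and Bleo_Vehicle, and neither passed. Background in this class was 3.63% and 5.26% of genes called. Col4a2 had 557, 403 and 334 CPM in PBS_Vehicle, 721, 726 and 700.1 in Bleo_Vehicle and 329, 443 and 276 in Bleo_NVP-BHG712. It had a log2 change of 0.78 in the first contrast (adjusted p = 0.0742) and fell by 1.01 in the second (SE 0.23, adjusted p = 0.0224), in the only call among the 6 chains in this class. That call was lost without Bleo_NVP-BHG712 replicate 1 or 3 (adjusted p = 0.0973 and 0.116) and without Bleo_Vehicle replicate 1 or 2 (0.0512 and 0.0576).

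The chains that lead in type I alveolar nuclei did not pass in either contrast there. Col4a3 had 3118, 1893 and 2059.8 CPM in PBS_Vehicle, 1747, 1668 and 2411 in Bleo_Vehicle and 1889, 1936 and 2163 in Bleo_NVP-BHG712, and these ranges overlapped. Its log2 change was -0.23 (adjusted p = 0.605) and then 0.06 (adjusted p = 0.908). Col4a4 had means of 2596 ± 483, 2128 ± 318 and 2307 ± 256, with changes of -0.24 (adjusted p = 0.515) and 0.14 (adjusted p = 0.715). Col4a5 had 1244 ± 229, 929 ± 318 and 1374 ± 216, with changes of -0.40 (adjusted p = 0.407) and 0.59 (adjusted p = 0.163). Col4a6 had 301, 200.3 and 285 CPM in Bleo_NVP-BHG712, all above the 112, 128 and 182 of Bleo_Vehicle, but the change of 0.90 did not pass (adjusted p = 0.324). The summed level of 8 type I markers in these nuclei was 14457 CPM in PBS_Vehicle, 9183 in Bleo_Vehicle and 13416 in Bleo_NVP-BHG712, with none of the 8 called, and median mitochondrial shares were 0.32% to 1.14% in Bleo_Vehicle. Their part in these values was not tested.

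**Figure D3:**
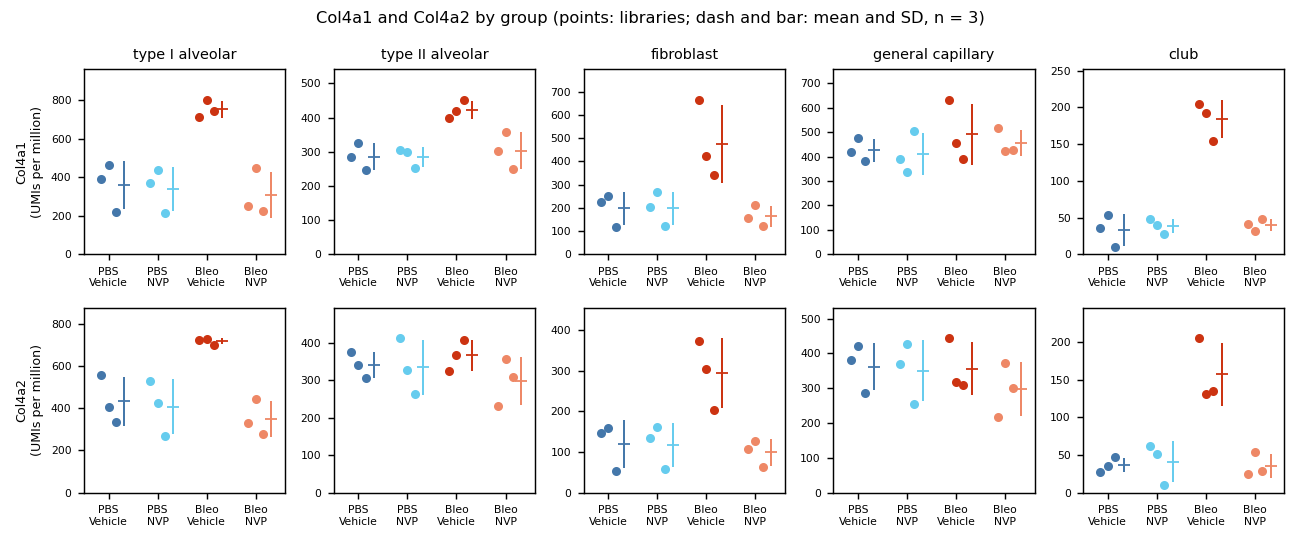
Col4a1 and Col4a2 in CPM (axis from 0) by class and group, with points for mice and a dash and bar for the group mean and SD. In type I alveolar nuclei the Bleo_Vehicle mice lie at 713 to 802 CPM for Col4a1, above the 216 to 466 of the other 9 mice, and in club nuclei at 155 to 205.

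Club nuclei had 3 of the 6 calls that held in every alternative. Col4a1 had 35.9, 54.0 and 10.4 CPM in PBS_Vehicle, 205, 192 and 155 in Bleo_Vehicle and 41.5, 31.4 and 47.5 in Bleo_NVP-BHG712. All Bleo_Vehicle mice were above all others. It rose by 2.32 (SE 0.33, adjusted p = 2.88e-05) with bleomycin and was 2.28 lower with NVP-BHG712 (log2 change -2.28, SE 0.36, adjusted p = 0.000181), and both calls held in each of the 19 alternatives, against a background of 2.52% and 1.92%. Col4a2 had 27.3, 35.3 and 47.0 CPM, then 205, 131 and 135, and then 24.9, 53.8 and 28.5. Its rise of 2.13 (adjusted p = 0.000828) held in every alternative, and its fall (-1.87, adjusted p = 0.00716) was lost without Bleo_NVP-BHG712 replicate 3 (adjusted p = 0.0740).

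The pair of smooth muscle and airway membranes, Col4a5 and Col4a6, had its lowest values in Bleo_Vehicle in the same nuclei. Col4a6 had 644, 532 and 903 CPM in PBS_Vehicle, 318, 321 and 462 in Bleo_Vehicle and 755, 776 and 936 in Bleo_NVP-BHG712. The Bleo_Vehicle mice were below all mice of both other groups. The difference passed between the bleomycin groups (log2 change 1.02, SE 0.22, adjusted p = 0.00890) and not against PBS_Vehicle (-0.73, adjusted p = 0.0697). The call was lost without Bleo_NVP-BHG712 replicate 3 (0.0795) or Bleo_Vehicle replicate 2 (0.128). Col4a5 had 934, 824 and 1138, then 136, 479.5 and 809, and then 1162, 1039 and 1092, again without overlap, but its changes of -0.70 (adjusted p = 0.204) and 0.90 (adjusted p = 0.0757) did not pass. The lowest of these values came from the shallowest club library, Bleo_Vehicle replicate 1, with 43 nuclei.

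The alveolar pair also rose in club nuclei. Col4a3 had 93.9, 70.6 and 36.6 CPM in PBS_Vehicle, 136, 182 and 271 in Bleo_Vehicle and 8.3, 109.9 and 52.2 in Bleo_NVP-BHG712. The rise was 1.68 (adjusted p = 0.00709), lost without PBS_Vehicle replicate 2 (0.0592) or Bleo_Vehicle replicate 3 (0.0709), with stricter nuclei (0.0983) and with doublets kept (0.108), and the later change was -1.69 (adjusted p = 0.0166), lost without Bleo_NVP-BHG712 replicate 3 (0.131) or Bleo_Vehicle replicate 3 (0.0896) and with doublets kept (0.0937). Col4a4 rose by 1.31 (adjusted p = 0.0214) with overlapping groups, a call lost without PBS_Vehicle replicates 2 (0.146) or 3 (0.0887) or Bleo_Vehicle replicate 3 (0.259), with DESeq2 (0.0797), with stricter nuclei (0.237) and with doublets kept (0.194). The summed type I markers in club nuclei were 595 to 850.2 CPM in PBS_Vehicle, 591 to 1377 in Bleo_Vehicle and 722 to 933 in Bleo_NVP-BHG712, with 1 of 6 tested markers called higher and then none of 6 called lower. The summed fibroblast markers were 58.1 to 126 CPM, 227 to 298 and 74.7 to 147, with 1 of 9 at 0 in Bleo_NVP-BHG712, and the median mitochondrial share in Bleo_Vehicle was 0.62% to 2.17%. Their part in the club results was not tested.

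**Figure D4:**
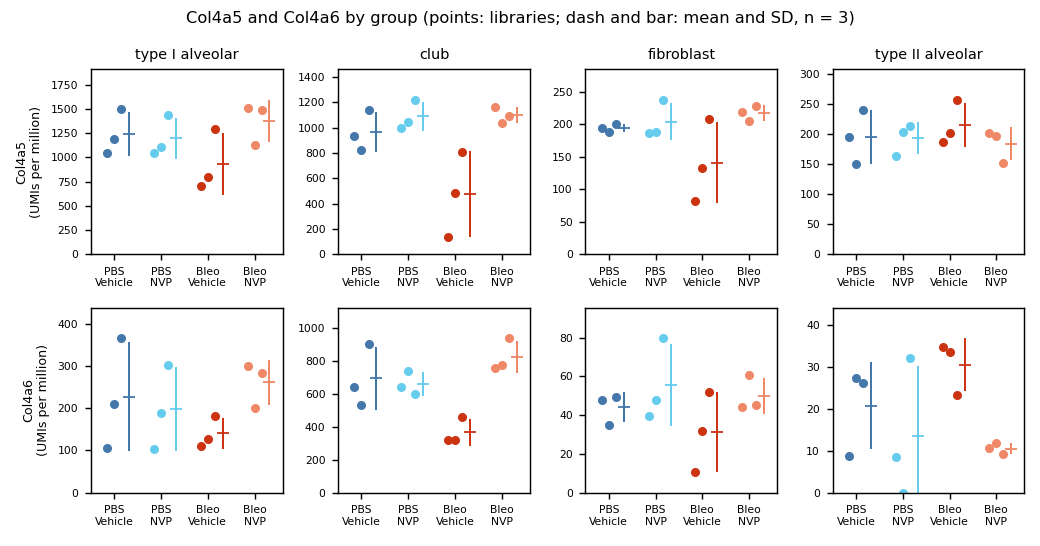
Col4a5 and Col4a6 in CPM (axis from 0) by class and group, with points for mice and a dash and bar for the group mean and SD. In club nuclei the Bleo_Vehicle mice lie at 318 to 462 CPM for Col4a6, below the 532 to 903 of PBS_Vehicle and the 755 to 936 of Bleo_NVP-BHG712.

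In fibroblasts, the largest class with 9307 nuclei, Col4a1 had 225, 251 and 117 CPM in PBS_Vehicle, 664, 423 and 339.5 in Bleo_Vehicle and 156, 212 and 122 in Bleo_NVP-BHG712. The Bleo_Vehicle mice were again above all others. The change of 1.24 with bleomycin did not pass (SE 0.36, adjusted p = 0.0747), and the fall of -1.44 between the bleomycin groups did (SE 0.37, adjusted p = 0.0360), where 4.59% and 7.22% of fibroblast genes were called. That call was lost in 7 of the 12 fits without 1 library, namely PBS_Vehicle 1 (0.0505), PBS_NVP-BHG712 1 (0.0513), Bleo_NVP-BHG712 1 (0.120), 2 (0.0526) or 3 (0.138) and Bleo_Vehicle 1 (0.122) or 2 (0.0802), and with stricter nuclei (0.0606). Col4a2 had 148, 159 and 52.0 CPM, then 374, 304 and 203, and then 108, 128 and 61.9, with changes of 1.26 (adjusted p = 0.161) and -1.47 (adjusted p = 0.0866).

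Col4a3 was low in fibroblasts but was called in both contrasts. It had 14.1, 13.2 and 6.2 CPM in PBS_Vehicle, 48.4, 46.0 and 31.8 in Bleo_Vehicle and 6.8, 4.7 and 19.8 in Bleo_NVP-BHG712. It rose by 1.82 (adjusted p = 0.0177), lost without PBS_Vehicle 1 (0.0511) or 3 (0.0773) or Bleo_Vehicle 2 (0.0687) and with stricter nuclei (0.161), and fell by 1.90 (adjusted p = 0.0174), lost without Bleo_NVP-BHG712 1 (0.0843) or 2 (0.0661) or Bleo_Vehicle 2 (0.0633) and with stricter nuclei (0.131). Beside it, the summed type I markers in fibroblasts were 124 to 199 CPM in PBS_Vehicle, 237 to 396 in Bleo_Vehicle and 97.6 to 205 in Bleo_NVP-BHG712, with 3 of 8 called higher and then 3 of 8 lower. The type II markers ranged from 102 to 201, from 312 to 1209.7 and from 84.9 to 124, with 5 of 8 called in each direction. No marker of either list was at 0 in any group, the median mitochondrial share was 0.50% to 1.37% in Bleo_Vehicle, and their part in the Col4a3 result was not tested.

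The fibroblast class held clusters with different levels. In the cluster led by Scube2 and Itga8, Col4a1 was 158 ± 79.8 CPM in PBS_Vehicle, 452 ± 215 in Bleo_Vehicle and 108 ± 55.2 in Bleo_NVP-BHG712. In the cluster led by Agtr1b and Itgbl1 it was 262, 410.4 ± 97.2 and 334 ± 91.6. In the cluster led by Tnc and Megf11, an extracellular matrix gene and a cell surface receptor gene, it was 317 ± 133, 598 ± 163 and 225 ± 113. In the cluster led by Opcml and Ebf2, with adventitial fibroblast markers, it was 360.4 ± 74.1, 340.5 ± 20.2 (2 libraries) and 267 ± 67.2 (2 libraries), with the highest mean in PBS_Vehicle. The Tnc cluster held 9.72% to 18.4% of the fibroblasts in PBS_Vehicle mice, 19.9% to 47.8% in Bleo_Vehicle and 13.2% to 26.9% in Bleo_NVP-BHG712. Cluster shares and levels are given as values, with no test.

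General capillary endothelium was the second class by mean Col4a1 level, in an order with type I alveolar nuclei that was not resolved. It had 418, 477 and 383 CPM of Col4a1 in PBS_Vehicle, 631, 454 and 391 in Bleo_Vehicle and 516, 422 and 428 in Bleo_NVP-BHG712. These groups overlapped, and the changes of 0.27 (adjusted p = 0.677) and -0.16 (adjusted p = 0.776) did not pass. Col4a2 had changes of 0.02 (adjusted p = 0.998) and -0.25 (adjusted p = 0.660). The calls in this class were in chains that are low there. Col4a3 had 19.2, 16.1 and 22.8 CPM in PBS_Vehicle, 65.6, 109 and 54.6 in Bleo_Vehicle and 6.6, 24.8 and 22.3 in Bleo_NVP-BHG712.

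Col4a3 rose by 2.12 in these nuclei (adjusted p = 0.00388, background 3.28%), lost without Bleo_Vehicle 2 (0.0640), with stricter nuclei (0.0843) and without batch correction (0.0789), and the later fall of -1.99 (adjusted p = 0.0128, background 3.92%) was lost without Bleo_NVP-BHG712 1 (0.0673), 2 (0.0551) or 3 (0.0577) or Bleo_Vehicle 2 (0.114), with stricter nuclei (0.125) and without batch correction (0.151). Col4a4 went from 30.2 ± 14.7 to 107 ± 55.6 and 33.9 ± 14 CPM, with a rise of 2.04 (adjusted p = 0.0130) and a fall of -1.78 (adjusted p = 0.0435), and Col4a5 from 13.6 to 49.6 and 18.3, with a rise of 1.83 (adjusted p = 0.0485). The rise of Col4a4 was lost without Bleo_Vehicle 2 (0.176) and without PBS_Vehicle 1 (0.0609) or 2 (0.0716), with stricter nuclei (0.0920) and without batch correction (0.212). The fall of Col4a4 was lost without Bleo_NVP-BHG712 1 (0.137), 2 (0.205) or 3 (0.0704) or Bleo_Vehicle 1 (0.0672) or 2 (0.364), with stricter nuclei (0.177), with doublets kept (0.0924) and without batch correction (0.303). The rise of Col4a5 was lost without PBS_Vehicle 1 (0.177), 2 (0.108) or 3 (0.0962), PBS_NVP-BHG712 2 (0.0537) or 3 (0.0541), Bleo_NVP-BHG712 1 (0.0561) or Bleo_Vehicle 1 (0.0961) or 2 (0.249), with stricter nuclei (0.308), with doublets kept (0.131), without batch correction (0.869) and at Leiden resolution 2 (0.215). The summed type I markers here were 569 to 741 CPM in PBS_Vehicle, 639 to 1127 in Bleo_Vehicle and 503 to 756 in Bleo_NVP-BHG712, with 3 of 6 called higher and 3 of 6 lower, and 5 of 7 type II markers went each way. Their part was not tested.

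**Figure D5:**
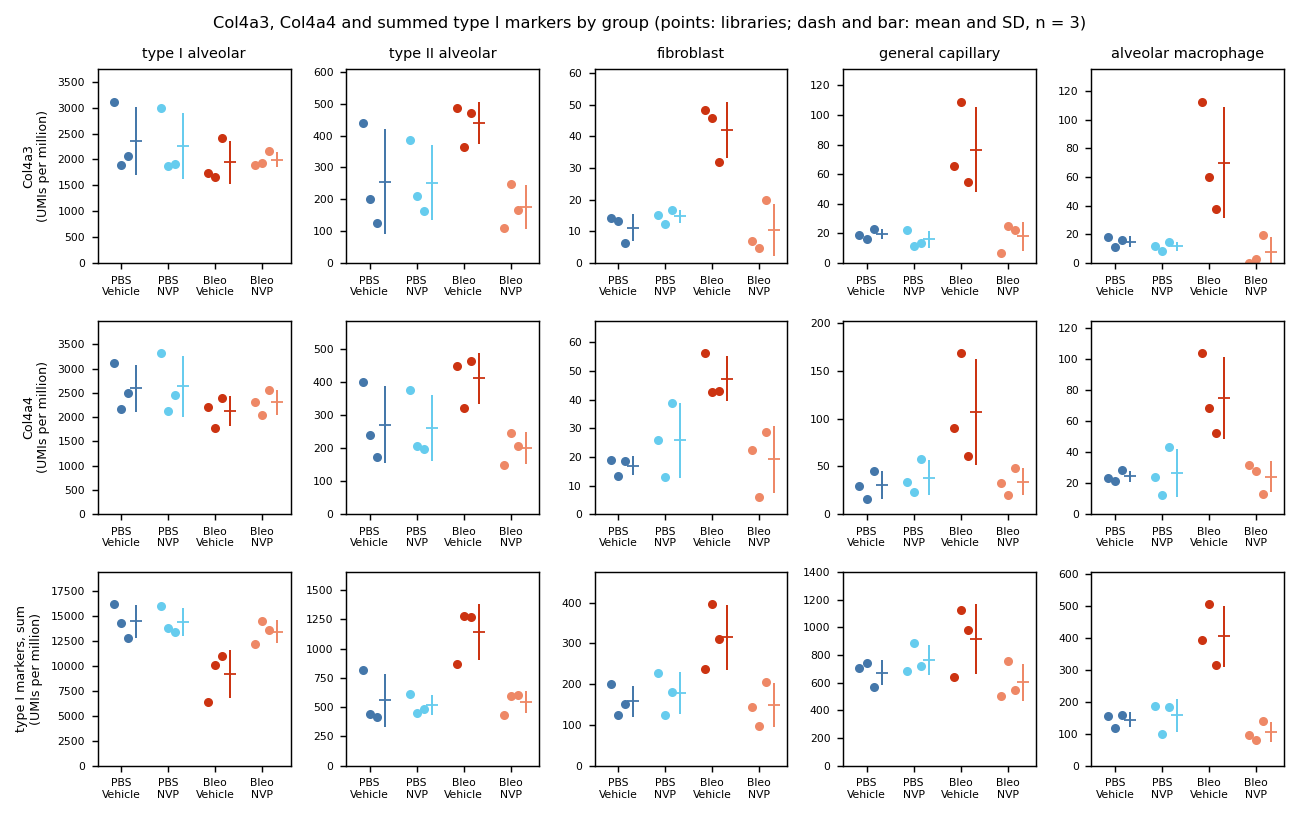
Col4a3, Col4a4 and the summed type I markers in CPM (axis from 0) by class and group, with points for mice and a dash and bar for the group mean and SD. In type I alveolar nuclei the Col4a3 values of the groups overlap (1668 to 2411 in Bleo_Vehicle, 1893 to 3118 in PBS_Vehicle), and in general capillary nuclei the Bleo_Vehicle mice lie at 54.6 to 109 CPM.

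In type II alveolar nuclei, Col4a1 had 285, 324 and 246 CPM in PBS_Vehicle, 397, 420.2 and 451 in Bleo_Vehicle and 301, 358 and 249 in Bleo_NVP-BHG712. Bleo_Vehicle was above both without overlap. It rose by 0.74 (SE 0.18, adjusted p = 0.0283, background 3.95%), and this was lost without any of the PBS_Vehicle mice (0.122, 0.0573 and 0.141), PBS_NVP-BHG712 1 (0.0530), Bleo_NVP-BHG712 1 (0.0536) or Bleo_Vehicle 2 (0.0846), with stricter nuclei (0.203) and without the filter on low counts (0.158). The later change of -0.61 did not pass (adjusted p = 0.0522). Col4a4 had 399, 239 and 174 CPM, then 448, 323 and 462, and then 149, 245 and 206. It fell by 1.16 between the bleomycin groups (SE 0.31, adjusted p = 0.0429, background 6.23%), a call made in 9 of 19 alternatives. It was lost without PBS_Vehicle 2 (0.0553), PBS_NVP-BHG712 2 (0.0509), Bleo_NVP-BHG712 1 (0.158), 2 (0.0717) or 3 (0.129) or Bleo_Vehicle 1 (0.113), 2 (0.0569) or 3 (0.0530), with doublets kept (0.0565) and at Leiden resolution 2 (0.0513). Col4a3 had changes of 0.90 (adjusted p = 0.277) and -1.44 (adjusted p = 0.0797). The type I markers in this class summed to 417 to 819.8 CPM, 864 to 1282 and 432 to 604, with 3 of 8 called higher and 5 of 8 lower, and their part was not tested.

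Alveolar macrophages, the class with the lowest Col4a1 level, were called in 5 of the 5 chains tested in both contrasts, against 6.58% and 6.68% of genes. Col4a1 went from 14.3 ± 13.5 CPM in PBS_Vehicle to 109 ± 46.9 in Bleo_Vehicle and 4.47 in Bleo_NVP-BHG712, a rise of 2.92 (adjusted p = 0.00380) and a fall of -4.34 (adjusted p = 0.00220). The other rises ran from 1.78 (Col4a4, adjusted p = 0.0110) to 2.93 (Col4a2, adjusted p = 0.000468), and the other falls from -1.77 (Col4a4, adjusted p = 0.0250) to -3.18 (Col4a3, adjusted p = 0.00646). The Bleo_NVP-BHG712 values rest on 5, 12, 7, 20 and 5 UMIs of 859217 for Col4a1 to Col4a5. The rises of Col4a2 and Col4a5 and the fall of Col4a1 held in every alternative. The rise of Col4a3 was lost without PBS_Vehicle 1 (0.0632) or 2 (0.0548) and that of Col4a4 without PBS_Vehicle 1 (0.0808). The fall of Col4a3 was lost without Bleo_NVP-BHG712 2 (0.0666), that of Col4a5 without Bleo_NVP-BHG712 2 (0.0969) or 3 (0.0560), and that of Col4a4 without Bleo_NVP-BHG712 1 (0.0547), 2 (0.0731) or 3 (0.139) or Bleo_Vehicle 1 (0.0678) or 2 (0.0505). The rise of Col4a1 was lost with stricter nuclei (0.0916) and without batch correction (0.0831). Without batch correction the rises of Col4a3 (0.401) and Col4a4 (0.361) and the falls of Col4a2 (0.136), Col4a3 (0.170) and Col4a4 (0.482) were lost too. In the same nuclei the type I markers summed to 118 to 158 CPM in PBS_Vehicle, 316 to 506 in Bleo_Vehicle and 81.2 to 140.2 in Bleo_NVP-BHG712, with 3 of 6 called higher and 4 of 6 lower. The fibroblast markers were 40.4 to 117, 284 to 357 and 40.6 to 137. The chains and the markers of other cells were thus higher in the same mice of a class that is not known to make them, and the part of these markers in these calls was not tested.

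In ciliated nuclei, Col4a1 rose from 80.6 ± 28.9 to 254 ± 127 CPM (log2 change 1.79, adjusted p = 0.0469, background 2.27%), called in 8 of 19 alternatives, and fell to 43.7 ± 29.3 with NVP-BHG712 (-2.6, adjusted p = 0.00801, background 5.08%). Col4a2 fell by 2.33 (adjusted p = 0.0130) and Col4a4 by 2.96 (adjusted p = 0.0394). The rise of Col4a1 was lost without any PBS_Vehicle mouse (0.0944, 0.123 and 0.177), any PBS_NVP-BHG712 mouse (0.0586, 0.0606 and 0.0612), Bleo_NVP-BHG712 3 (0.0570) or Bleo_Vehicle 1 (0.118) or 2 (0.672), with stricter nuclei (0.340) and without batch correction (0.0990), and its fall without Bleo_NVP-BHG712 3 (0.0631) or Bleo_Vehicle 2 (0.107). The fall of Col4a2 was lost without Bleo_NVP-BHG712 2 (0.0863) or 3 (0.0866) or Bleo_Vehicle 2 (0.204) and with stricter nuclei (0.0744), and that of Col4a4 without any Bleo_NVP-BHG712 mouse (0.126, 0.169 and 0.109) or Bleo_Vehicle 1 (0.0821) or 2 (0.484), with stricter nuclei (0.320) and without batch correction (0.114). None of the chains passed in aerocytes, venous or arterial endothelium or peribronchial fibroblasts. In aerocytes Col4a1 had means of 308, 291, 424 and 289 CPM in PBS_Vehicle, PBS_NVP-BHG712, Bleo_Vehicle and Bleo_NVP-BHG712, with a change of -0.58 between the last 2 groups (adjusted p = 0.261). Pericytes, with 8 usable libraries, were left out of the tests by the chosen minimum of 2 libraries in each group, since only 1 Bleo_NVP-BHG712 library had enough nuclei. They had 611 and 706 CPM of Col4a1 in PBS_Vehicle, 510.2 and 813 in PBS_NVP-BHG712, 1122, 879 and 737 in Bleo_Vehicle and 863 in that Bleo_NVP-BHG712 library. Mesothelial Col4a4 was 661, 659 and 657 CPM in PBS_Vehicle, 949.5 and 946 in PBS_NVP-BHG712, 448, 539 and 541 in Bleo_Vehicle and 1217 in 1 Bleo_NVP-BHG712 library.

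Summed over all nuclei of a mouse, where fewer cells of a type and less RNA per cell cannot be told apart, Col4a1 had 270.2, 294 and 166 CPM in PBS_Vehicle, 481, 453 and 409.6 in Bleo_Vehicle and 201, 268 and 178 in Bleo_NVP-BHG712. Bleo_Vehicle was above both others in every mouse. The change of Col4a1 did not pass (0.95, SE 0.23, adjusted p = 0.0517), and neither did that of Col4a2 (0.73, adjusted p = 0.0875), so that 0 of 6 chains were called with edgeR, 2 at an unadjusted p under 0.05 and 2 with DESeq2, against 2.35% of genes. Between the bleomycin groups Col4a1 fell by 1.05 (SE 0.23, adjusted p = 0.0238) and Col4a2 by 0.92 (adjusted p = 0.0268), against 5.59% of genes. Both were lost without Bleo_NVP-BHG712 1 (0.105 and 0.114) or 3 (0.120 and 0.132) and without Bleo_Vehicle 1 (0.0632 and 0.0721) or 2 (0.0648 and 0.0700). Col4a3 had means of 648, 639.6, 607 and 629 CPM over the 4 groups and Col4a4 at 724, 768, 657 and 746. Col4a6 had 53.0, 65.3 and 92.6 CPM in Bleo_Vehicle and 162, 127 and 158 in Bleo_NVP-BHG712, a change of 1.09 that did not pass (adjusted p = 0.124). Between the PBS groups, and between Bleo_NVP-BHG712 and PBS_NVP-BHG712, 0 of 6 were called against 0% (edgeR, 0 at an unadjusted p under 0.05 in both).

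Whether the change with NVP-BHG712 differed between bleomycin and PBS lungs was tested as an interaction. It was called in 4 of 55 tests, all lower, against 0.525% of genes within classes (28 at an unadjusted p under 0.05), and in 0 of 6 whole-lung tests with edgeR against 0.368% (2 at an unadjusted p under 0.05). The 4 were Col4a2 and Col4a5 in alveolar macrophages, where 1.72% of genes were called, and Col4a1 and Col4a3 in club nuclei, where 0.52% were.

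Genes that work with type IV collagen were taken as 3 lists, and most of their members did not pass. Of the basement membrane partners (laminin chains, nidogens, perlecan and others), 2 of 12 tested fell with bleomycin in type I alveolar nuclei, and 2 rose with NVP-BHG712, against 3.63% and 5.26% of all genes called in either direction. In fibroblasts the counts were 1 higher and 1 lower of 18 and then 2 higher and 1 lower (background 4.59% and 7.22%), in general capillary nuclei 1 higher of 8 and then 0 called (3.28% and 3.92%), and in whole lung 2 lower of 21 and then 4 higher and 1 lower (2.35% and 5.59%). In type I alveolar nuclei, Lama3, a laminin α chain, went from 1458 to 639 and 1355 CPM (-1.15, adjusted p = 0.00165, and 1.11, adjusted p = 0.00215), and Npnt, an integrin ligand of basement membranes, from 757 to 336 and 728 (-1.13, adjusted p = 0.00162, and 1.14, adjusted p = 0.00157). Lama3 and Npnt thus fell in the nuclei in which Col4a1 and Col4a2 had their highest values in Bleo_Vehicle. In fibroblasts Npnt, also one of the markers that name the class, went from 1450 to 525 and 1604 CPM (-1.49, adjusted p = 0.0235, and 1.69, adjusted p = 0.0116). Npnt instead rose with bleomycin in general capillary nuclei, from 23.5 to 73.9 CPM (edgeR, 1.65, adjusted p = 0.0110).

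Of the assembly and crosslinking list, which holds the chaperone and the prolyl and lysyl hydroxylases of collagen, 0 rose and 1 fell of 18 in type I alveolar nuclei with bleomycin, 2 rose and 1 fell with NVP-BHG712, 2 of 27 rose in fibroblasts and then 1 rose and 2 fell, and 0 of 14 and then 1 (lower) were called in general capillary nuclei. Against the same backgrounds, 3.63% and 5.26% in type I alveolar nuclei, 4.59% and 7.22% in fibroblasts and 3.28% and 3.92% in general capillary nuclei, the bleomycin counts were close to the share over all genes. Plod2, a lysyl hydroxylase, went from 475 to 212 and 446 CPM in type I alveolar nuclei (-1.12, adjusted p = 0.0290, and 1.09, adjusted p = 0.0267). The collagen galactosyltransferase genes moved apart there between the bleomycin groups, with Colgalt1 from 34.2 to 11.1 CPM (-1.57, adjusted p = 0.0234) and Colgalt2 from 15.3 to 44.0 (1.46, adjusted p = 0.0103). In fibroblasts Loxl3, a lysyl oxidase, went from 9.53 to 39.6 and 7.55 CPM (1.87, adjusted p = 0.0379, and -2.17, adjusted p = 0.0252). In aerocytes Sparc, a collagen-binding protein of the matrix, went from 16.1 to 82.3 and 7.2 (1.97, adjusted p = 0.0316, and -3.18, adjusted p = 0.00492), and in general capillary nuclei it was called between the bleomycin groups (-1.25, adjusted p = 0.0388).

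Of the receptors and proteases, 1 of 9 fell with bleomycin in type I alveolar nuclei, and 1 rose and 2 fell with NVP-BHG712. In fibroblasts 3 rose and 1 fell of 13, and then 2 rose and 3 fell, and in general capillary nuclei 1 of 8 rose and then 1 fell. The background was 3.63% and 5.26% in type I alveolar nuclei, 4.59% and 7.22% in fibroblasts and 3.28% and 3.92% in general capillary nuclei. In type I alveolar nuclei Timp2, an inhibitor of matrix metalloproteinases, went from 127 to 68.0 and 102 CPM (-0.86, adjusted p = 0.00863, and 0.61, adjusted p = 0.0326), and the laminin receptor genes Itga6 (24.1 to 4.97 CPM, -2.22, adjusted p = 0.0224) and Itga3 (236 to 137 CPM, -0.77, adjusted p = 0.0405) were lower with NVP-BHG712. In fibroblasts Mmp2, a protease that cleaves type IV collagen, went from 24.2 to 51.5 and 22.6 CPM (1.01, adjusted p = 0.0412, and -1.05, adjusted p = 0.0355). Its inhibitor Timp3 was called there between the bleomycin groups, with 163 CPM in Bleo_Vehicle and 442 in Bleo_NVP-BHG712 (1.49, adjusted p = 0.0225). Ddr2, a receptor for fibrillar collagens, went from 411 to 281 and 399 CPM (-0.57, adjusted p = 0.0328, and 0.59, adjusted p = 0.0252). Timp3 moved the other way in general capillary nuclei, from 127 to 292 and 89.25 CPM (edgeR, 1.28, adjusted p = 0.0269, and -1.62, adjusted p = 0.0107).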

How the data were processed

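Per the labels and the study's methods, nuclei were sorted from frozen lung and sequenced with the 10x Chromium 3′ v3.1 kit. The authors aligned the reads to mm10 with Cell Ranger (7.2.0 per the file headers, 7.0 in the submitters' processing notes) and deposited raw UMI counts per gene and barcode, without normalization. The values are whole numbers, and the study's DecontX and DoubletFinder steps were not run here. The strand setting of the counting is not given in the sources used here, so reads of Col4a1 and Col4a2 may not be told apart from those of Gm15418 and Gm15419, which overlap them on the opposite strand.

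Barcodes with under 200 or over 6000 genes or over 5% mitochondrial UMIs were left out (13, 96 and 1739), and 2708 doublets were removed at 0.8% per 1000 nuclei. The remaining nuclei were clustered (2000 variable genes without the 6 members and mitochondrial genes, 30 principal components, Harmony, 20 neighbours, Leiden resolution 1), and the 35 clusters were named from markers. UMIs were summed per library and class. Classes were tested with edgeR 4.0.16 (R 4.3.3) by the quasi-likelihood test over 4 groups, with Benjamini-Hochberg adjustment over the genes tested. The test was checked on simulated data. Classes were compared within libraries by exact two-sided sign-flip tests on log2(CPM + 1) (Python 3.11.15, scipy 1.17.1). Alternatives were Leiden resolution 2, no batch correction, doublets kept, stricter nuclei, DESeq2 1.42.0, no filter on low counts, a replicate block, a pseudocount of 10 and leaving out each library.

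All 6 members are reported, with the 5 genes most like each pair and up to 3 rises and 3 falls per list among called partner genes of at least 10 CPM without overlap. A result for 1 partner gene is not reported here. The members, lists and tests were chosen with earlier results of these data known. Same-numbered PBS_Vehicle and PBS_NVP-BHG712 mice deviated together in whole lung (r = 0.75, 0.398 and 0.506). Replicates 1 of both groups shared run or batch number 1 and replicates 2 shared number 2. A pairing of mice and a shared run or batch thus cannot be told apart for them, while replicates 3 had numbers 2 and 3. The block changed no call between the PBS groups, where 0 were called without it. Sequences are from RefSeq on GRCm38.p6, which matched 5 of the 6 members. Coordinates are from GENCODE M21. Sex is not given in the labels. Over the 12 libraries Xist was at most 1.44 CPM and Uty at least 280.2 CPM, which bears on the X-linked Col4a5 and Col4a6.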

Additional observations from a re-analysis of the deposited data

Results flagged for a closer look

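The 4 values listed here stood out because the change with NVP-BHG712 differed between bleomycin and PBS lungs by a test of that difference itself, the interaction term of edgeR's quasi-likelihood fit. In alveolar macrophages the difference in log2 change was -3.16 for Col4a2 (adjusted p = 0.0246) and -3.66 for Col4a5 (adjusted p = 0.0280). In club nuclei it was -2.37 for Col4a1 (adjusted p = 0.0236) and -2.27 for Col4a3 (adjusted p = 0.0481). They were kept in 11 of 18, 10 of 17, 12 of 19 and 7 of 19 alternatives. For Col4a2 in macrophages the call was lost without PBS_Vehicle 2 (0.0533), PBS_NVP-BHG712 1 (0.204), Bleo_NVP-BHG712 1 (0.0590), 2 (0.0907) or 3 (0.0883) or Bleo_Vehicle 2 (0.0864) and without batch correction (0.367). For Col4a5 it was lost without PBS_Vehicle 1 (0.0510), 2 (0.0641) or 3 (0.0561), PBS_NVP-BHG712 3 (0.0552), Bleo_NVP-BHG712 2 (0.129) or 3 (0.0779) or Bleo_Vehicle 2 (0.0852). In club nuclei the Col4a1 call was lost without PBS_Vehicle 1 (0.0519), PBS_NVP-BHG712 1 (0.206) or 2 (0.0512), Bleo_NVP-BHG712 2 (0.148) or Bleo_Vehicle 2 (0.0699), with DESeq2 (0.0512) and with stricter nuclei (0.398). The Col4a3 call was lost without PBS_Vehicle 2 (0.175) or 3 (0.0930), PBS_NVP-BHG712 1 (0.253) or 2 (0.151), Bleo_NVP-BHG712 3 (0.231) or Bleo_Vehicle 1 (0.0849), 2 (0.0795) or 3 (0.127), with the replicate block (0.0681), with stricter nuclei (0.152), with doublets kept (0.170) and at Leiden resolution 2 (0.0566). Each bleomycin group had run or batch numbers of its own, which cannot be told apart from the group in these differences.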

How the results depend on the processing

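No recomputed value turned its direction. Of 728 values recomputed for the 39 calls of a chain, 557 kept the call and 171 lost it, and 6 calls were kept in every alternative. Within classes, the 15 calls between Bleo_Vehicle and PBS_Vehicle became 8 without batch correction before clustering and 3 with stricter nuclei, and the 18 between the bleomycin groups became 29 without the filter on low counts and 8 with stricter nuclei. The 4 interaction calls became 11 with doublets kept, 18 without the filter and 0 with stricter nuclei. In whole lung, the 0 calls between Bleo_Vehicle and PBS_Vehicle became 2 with DESeq2. The number of steps between neighbouring classes that passed went from 3 to 6 with stricter nuclei. The balance of Col4a3 to Col4a4 between type I and type II alveolar nuclei passed with doublets kept (-0.22) and without batch correction (-0.12). The stricter limits also left fewer nuclei, and the cause of these changes was not tested.

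With the replicate number as a block, the counts within classes were 22, 27 and, for the interaction, 9, and in whole lung 2, 4 and 2. Outside the PBS groups the mice share only a number, so these are counts only. Leaving out 1 library at a time gave 8 to 20 calls between Bleo_Vehicle and PBS_Vehicle, 6 to 23 between the bleomycin groups and 0 to 11 for the interaction. The first count was 9 without Bleo_Vehicle 2 and 8 without PBS_Vehicle 1 or 2. The second was 10, 9 and 6 without Bleo_NVP-BHG712 1, 2 and 3 and 7 without Bleo_Vehicle 2. The interaction count was 0 without Bleo_Vehicle 2, 11 without Bleo_Vehicle 3, 1 without PBS_NVP-BHG712 1 or PBS_Vehicle 2, and 2 without PBS_NVP-BHG712 2, PBS_Vehicle 1 or 3 or Bleo_NVP-BHG712 3. In whole lung the ranges were 0 to 1 (1 without Bleo_Vehicle 3) and 0 to 3 (0 without Bleo_NVP-BHG712 1 or 3 or Bleo_Vehicle 1 or 2). The class differences ranged from 1.03 to 1.22, 3.03 to 3.21 and 2.53 to 2.61 for the summed pairs, and from -0.46 to -0.30, -0.11 to -0.05 and 0.41 to 0.55 for their balances. Depth limits the chains that are low in a class, such as Col4a3 in capillary nuclei and all chains in macrophages.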
